A study of Mus musculus with 11 samples.

Results

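Immunoglobulin gene segments, the exons that B cells join to make antibodies, were described in RNA from EpCAM-selected mouse liver cells. Members were the entries of the deposited expression table with an immunoglobulin gene biotype, pseudogenes left out, and an FPKM (a read count divided by gene length and by library depth) of 1 or more in at least 1 library, which gave 219 of 43346 entries. The label did not hold for all of them: 203 lie in the immunoglobulin loci, and 16 are T cell receptor segments or constant genes to which the table gives the same biotypes, so these are described apart at the end. Of 252 functional immunoglobulin entries at any level, 203 were members. They were 7 of 8 heavy constant genes, 91 of 116 heavy variable, 9 of 17 diversity and 4 of 4 heavy joining segments on chromosome 12. On chromosome 6 they were the kappa constant gene, 83 of 98 kappa variable and 5 of 5 kappa joining segments, and on chromosome 16 they were 3 of 3 lambda variable segments. The members nearest to the threshold were Igkv9-123, Igkv5-37 and Igkv12-38, whose highest values were 1.01, 1.02 and 1.07 FPKM. Just below it were Ighv5-15, Igkv4-79 and Igkv10-95, with highest values of 0.980, 0.965 and 0.903 FPKM.

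All 11 libraries came from wildtype males of the C57BL/6 strain, 14 to 16 weeks old. The labels number them as replicates and do not say that each is a separate animal, so p-values measure the spread between these libraries, which may in part be technical. Control mice ate chow (n = 4 libraries), DDC mice ate for 10 days a diet with DDC, a porphyrinogenic compound that injures bile ducts (n = 4 libraries), and R15 mice ate that diet for 10 days and then chow for 15 days (n = 3 libraries). Dissociated liver was bound to EpCAM beads and passed over a column, then over another, and polyadenylated RNA was made into stranded libraries. Whole reads summed over all entries of the expression table came to 49339240 to 72929107 in a library. The cells are labelled cholangiocytes, the epithelium of bile ducts, and the duct markers Epcam and Krt19 were at 259 to 431 and 237 to 667 FPKM. Genes of a pancreatic acinar list summed to 8551, 2261, 1000 and 9.82 FPKM in Control 1 to 4. They summed to 1089 in DDC 1, 1398 in R15 3 and 6.28 to 11.8 in the other DDC and R15 libraries. The part of such tissue in the immunoglobulin levels was not tested. The labels name no B or plasma cells, the cells that held the immunoglobulin RNA were not identified here, and in such bulk samples fewer cells of a type and less RNA per cell cannot be told apart. The 18 genes of a B cell list were all detected, with summed levels of 17.8 to 25.4 FPKM in Control, 21.2 to 25.5 in DDC and 16.6 to 28.9 in R15.

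A B cell makes its heavy chain gene by joining a variable, a diversity and a joining segment, and its light chain gene by joining a variable and a joining segment. The joined exon is spliced to a constant gene, which sets the class: Ighm for IgM, Ighd for IgD, the Ighg genes for IgG, Ighe for IgE and Igha for IgA. Plasma cells, the secreting form, fill their RNA with these transcripts, and in mice and humans the polymeric immunoglobulin receptor Pigr carries IgA bound to the joining chain Jchain across epithelia.

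The 3′ ends of the variable exons that the results below turn on are shown first, because this is where a segment is cut and joined. Each run holds the last 60 bases of the exon, 5′ to 3′ on the coding strand, from GENCODE M21 transcripts of GRCm38, and the capitals mark the last in-frame cysteine codon and all bases after it, the germline start of the third hypervariable loop.
Ighv7-1: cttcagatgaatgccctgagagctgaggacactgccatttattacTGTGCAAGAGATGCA
Igkv15-103: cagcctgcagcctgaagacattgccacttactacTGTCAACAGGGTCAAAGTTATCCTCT
Ighv14-2: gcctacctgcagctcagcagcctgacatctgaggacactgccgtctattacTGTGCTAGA
Igkv1-135: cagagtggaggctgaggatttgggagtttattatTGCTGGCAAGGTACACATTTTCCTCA
Ighv11-2: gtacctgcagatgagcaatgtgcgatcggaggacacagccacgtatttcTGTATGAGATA
Igkv14-126: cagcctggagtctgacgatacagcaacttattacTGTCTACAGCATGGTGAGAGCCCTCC
Igkv6-23: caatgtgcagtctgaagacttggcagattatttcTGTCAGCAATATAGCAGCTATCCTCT
Iglv1: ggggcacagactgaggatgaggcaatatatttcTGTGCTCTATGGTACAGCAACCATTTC
The 3 heavy exons end at chr12:113896408-113896467, chr12:113994469-113994528 and chr12:114048241-114048300, all on the minus strand and in the order Ighv7-1, Ighv14-2 and Ighv11-2. The kappa exons end at chr6:68437866-68437925 for Igkv15-103, chr6:67610449-67610508 for Igkv1-135 and chr6:67896583-67896642 for Igkv14-126 on the plus strand, and at chr6:70260409-70260468 for Igkv6-23 on the minus strand. The Iglv1 exon ends at chr16:19085017-19085076 on the minus strand. From the cysteine codon on, the heavy exons shown hold 9 to 15 bases and the kappa exons 26, before the diversity or joining segment is added.

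Segments resemble each other, and reads of near-identical ones can be split between them, so single variable segments are uncertain to that extent. Compared with its nearest relative in the same locus, the exon of Igkv15-103 was 78.6% identical and that of Ighv7-1 was 89.3% identical. Igkv14-126 stood at 90.9%, Igkv6-23 at 94.6%, Iglv1 at 96.4%, Igkv1-135 at 96.5%, Ighv14-2 at 97.0% and Ighv11-2 at 98.7%. Among the members with an exon in GENCODE M21, 49 of 91 heavy and 25 of 82 kappa variable exons had a relative at 95% identity or more.

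Immunoglobulin transcripts were at a lower summed level in DDC than in chow libraries in every class of segment, and in recovery their total lay within or above the chow range. The summed FPKM of the 203 members was 5699, 3905, 8241 and 6219 in Control 1 to 4, 1461, 1559, 1492 and 2823 in DDC 1 to 4, and 4131, 19476 and 5797 in R15 1 to 3. Joining segments are short and so weigh heavily in these sums. In Control 1 the heavy ones held 1136 FPKM and the kappa ones 1836, but only 4936 and 5302 of 115912 reads. No DDC library reached the lowest Control or R15 library. By class, R15 1 was below the lowest Control library for heavy constant genes (236 against 241 FPKM), diversity segments (28.0 against 39.9), heavy joining segments (750.4 against 769.9) and lambda variable segments (25 against 76.0), and R15 3 for lambda variable segments (70.2). Of the whole reads summed over all entries of a library, these transcripts were 0.115 to 0.239% in Control, 0.0434 to 0.0834% in DDC and 0.117 to 0.566% in R15. The Control mean was 3.28 times the DDC mean, and 2.88 times without Control 3, a library that also held gastric mucous transcripts at 11252 summed FPKM against 67.3 to 161 elsewhere.

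The library R15 2 stood apart from all the others, at 2.36 times the next highest library and 3.92 times the mean of R15 1 and R15 3. With it the R15 mean was 1.63 times the Control mean and 5.34 times the DDC mean, and without it 0.825 and 2.71 times. It was also the highest R15 library for macrophage and dendritic cell genes, at 784 summed FPKM against 159 and 195 in R15 1 and R15 3, and its cholangiocyte list was at 8645 against 9318 and 9678. Their part in its immunoglobulin level was not tested. Of the 91 heavy variable members 40 had their highest value of all libraries in R15 2, and of the 83 kappa variable members 42 did, so its excess was spread over many segments.

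The classes moved by different amounts. For lambda variable segments the Control mean was 154 ± 96.5 FPKM (SD, n = 4) and the DDC mean 20.9 ± 7.76 (n = 4), a ratio of 7.37, or 5.12 without Control 3. The same ratio was 3.27 for kappa variable segments, 3.25 for heavy variable segments, 3.24 for the kappa constant gene and 2.68 for heavy constant genes. For the 4 gamma constant genes alone it was 1.51, and the libraries overlapped, with 34.5, 7.43, 51.3 and 29.7 FPKM in Control and 11.6, 34.7, 18.2 and 16.8 in DDC. Summed variable over summed constant FPKM was 1.13 to 1.23 in Control, 1.04 to 1.06 in DDC and 1.06 to 1.19 in R15. No test was made on these sums, since the members were chosen by their level in the same libraries.

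**Figure D1:**
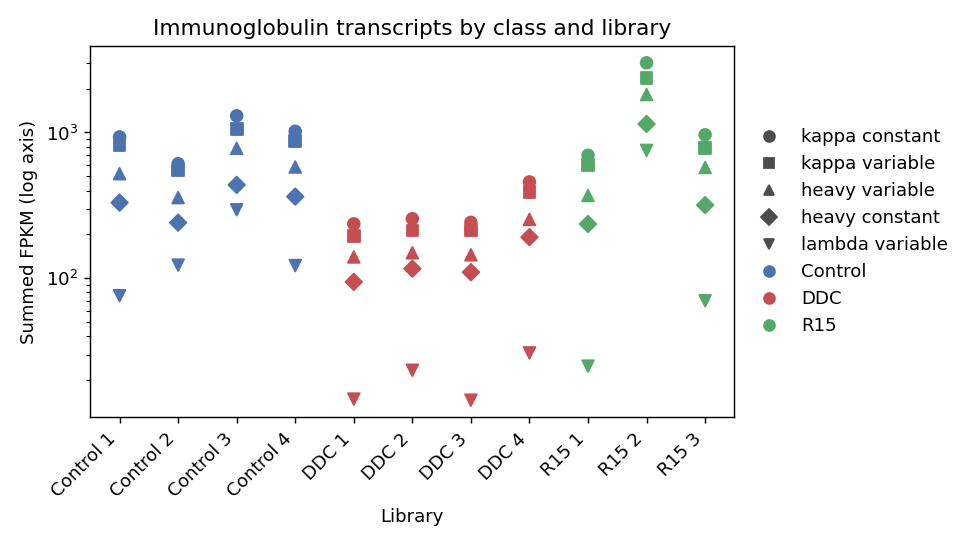
Summed FPKM (log axis) of 5 immunoglobulin classes in each of the 11 libraries, with marker shape for the class and colour for the group. The kappa constant gene spans 236 to 458 FPKM in DDC and 609.8 to 1300.2 in Control, and R15 2 is the highest library for every class drawn.

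Single members were tested with limma on log2(FPKM + 1), a scale on which changes of low segments are understated, and 171 of the 203 passed the filter of 1 FPKM in 3 libraries. In DDC against Control, 51 fell and 1 rose at a Benjamini-Hochberg adjusted p under 0.05. Over all 15264 genes tested, 65.4% were called, 31.9% lower and 33.5% higher, so the share of members called lower, 29.8%, was near the background, while 0.585% were called higher. The median log2 change of the tested members was -1.15, against 0.00 over all genes, and the rule and the filter both favour segments that are high in some library. By class, 22 of 79 heavy variable, 17 of 68 kappa variable, 1 of 3 lambda variable, 8 of 9 joining, 1 of 5 diversity and 2 of 7 constant members fell. The count of falls was 35 without Control 3 and 61 without R15 2, and that of rises 3 without Control 1 and 2 without R15 2 or R15 3. It was 24 falls without Control 1 and Control 3, and 27 without the 5 libraries that held pancreatic acinar transcripts (Control 1, 2 and 3, DDC 1 and R15 3), which leaves Control 4 as the lone Control library, assumed to vary like the other groups. Without those 5 libraries the DDC against Control calls given below for Igkc, Jchain, Cd79a, Iglv1, Ighv14-2, Ighv11-2, Ighv1-26, Ighv1-53, Igkv14-126 and Igkv8-27 were lost, as were those of Ighm, Ighv7-1 and Igkv15-103 in R15 against DDC and all 3 in R15 against Control. With limma voom on whole reads, the calls given below for Iglv1, Ighv1-26 and Ighv1-53 in DDC against Control, Ighv7-1 and Igkv3-2 in R15 against DDC and Igkv2-137 in R15 against Control were lost. Without Control 1 and Control 3, those of Igkc, Cd79a, Iglv1, Ighv14-2, Ighv1-26 and Ighv1-53 in DDC against Control were lost, and with no filter those of Ighv1-26, of Ighv7-1 and Igkv15-103 in R15 against DDC and of Igkv2-137. With only the 2 groups in the fit, Ighm, Ighv7-1 and Igkv15-103 in R15 against DDC and Igkv2-137 and Ighv2-4 in R15 against Control did not pass. A pseudocount of 5 ended the calls of Ighv7-1 and Ighv1-53, a pseudocount of 0.1 that of Ighv2-4 and median-of-ratios scaling that of Ighv7-1.

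In R15 against DDC, 59 of the 171 rose and none fell by limma (68 had an unadjusted p under 0.05 in either direction), where the background was 62.2%, of which 33.4% were higher and 28.8% lower. The share of members that rose, 34.5%, was again near the background, and their median log2 change was 1.48, against 0.04 over all genes. Without R15 2 there were 37 rises and 1 fall. In R15 against Control 3 members rose and none fell (16 had an unadjusted p under 0.05), against 9.58% of all genes called, 6.87% higher and 2.72% lower, and limma voom on whole reads called 2 higher and none lower. Of these 3, Ighv14-1 and Ighv2-4 passed the filter only through the R15 libraries where they are high, so their calls are no support for a rise. The count of rises was 1 without Control 4 or R15 2, and falls numbered 2 without R15 2 and 1 without Control 2, Control 4, DDC 4 or R15 3. These comparisons share libraries, so they are not independent of each other.

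**Figure D2:**
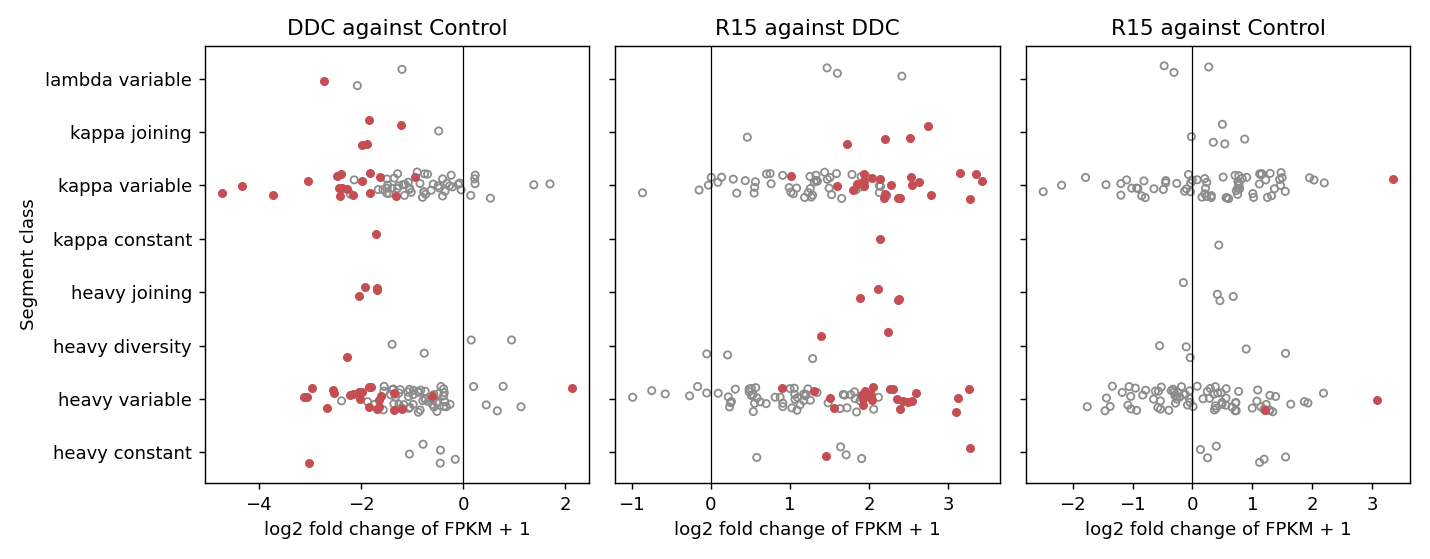
log2 fold change of FPKM + 1 (x axis) of each tested immunoglobulin member by class (rows) in the 3 comparisons, with filled red points at a limma adjusted p under 0.05 and open grey points above it. The DDC panel holds 51 red points left of 0 and 1 right of it, and the R15 against Control panel holds 3 red points.

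Among constant genes the transcript of IgA fell most. Igha was at 98.5, 50.2, 234 and 129 FPKM in Control, 20, 9.44, 8.34 and 16.7 in DDC, and 55.9, 289.5 and 141 in R15. Every DDC library was below every other library. The log2 change was -3.02 ± 0.56 (SE) in DDC against Control (limma adjusted p = 0.000838) and 3.27 ± 0.60 in R15 against DDC (adjusted p = 0.000981), and both calls held under every alternative run, with adjusted p of 0.000426 to 0.0392 and 0.000625 to 0.0188. R15 did not pass against Control (0.25 ± 0.60, adjusted p = 0.805; alternatives 0.397 to 0.997).

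The kappa constant gene Igkc, which all kappa light chains share and which had the highest level of any constant gene, was at 932, 609.8, 1300.2 and 1019 FPKM in Control, 236, 256, 242 and 458 in DDC, and 698, 3004 and 964 in R15. The DDC libraries lay below all others. Its log2 change was -1.70 ± 0.43 in DDC against Control (limma adjusted p = 0.00562; alternatives 0.000474 to 0.166) and 2.14 ± 0.47 in R15 against DDC (adjusted p = 0.00262; alternatives 0.000694 to 0.0479). The first call was lost without the libraries with pancreatic transcripts (-1.74, adjusted p = 0.166) and, by little, without Control 1 and Control 3 (-1.46, adjusted p = 0.0502).

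Ighm, the constant gene of IgM, was at 196, 183, 151 and 204 FPKM in Control, 62.1, 71.7, 83.0 and 158 in DDC, and 148, 645 and 145 in R15. DDC 4 reached into the Control and R15 ranges, and the other DDC libraries did not. The change in DDC against Control missed the threshold (log2 -1.05 ± 0.46, limma adjusted p = 0.0655; alternatives 0.00477 to 0.384). It passed without R15 2 (adjusted p = 0.00477), without DDC 4 (-1.33, adjusted p = 0.0304), with quantile normalization (0.0325) and with only the 2 groups in the fit (0.00838). Recovery against DDC gave a rise of Ighm by 1.45 ± 0.49 on the log2 scale (adjusted p = 0.0261; alternatives 0.0121 to 0.112). That call was lost without R15 2 (0.74, adjusted p = 0.0631), DDC 1 (0.0645), DDC 2 (0.0594) or DDC 3 (0.0531), and with only the 2 groups in the fit (0.0621).

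The 4 gamma constant genes did not pass in DDC against Control. Ighg1 was at 1.80 to 8.59 FPKM in Control, 2.45 to 4.70 in DDC and 6.02 to 57.3 in R15, with a log2 change of -0.44 ± 0.64 in DDC against Control (limma adjusted p = 0.562). Ighg2b was at 2.30 to 24.4, 2.33 to 5.81 and 8.67 to 73.2 FPKM, with a log2 change of -0.78 ± 0.73 (adjusted p = 0.365). The ranges of DDC and Control overlapped for both, and R15 2 was the highest library for both. Ighg2c was at 1.58 to 10.0 FPKM in Control, at 1.45, 20.1, 3.83 and 5.41 in DDC, and at 10.9, 52.8 and 12.8 in R15 (log2 change in DDC -0.15 ± 0.74, adjusted p = 0.865; its sign turned in 6 alternatives). Ighg3 was at 1.74 to 10.9, 2.69 to 7.37 and 2.07 to 24.8 FPKM (-0.45 ± 0.65, adjusted p = 0.564). Ighd, the constant gene of IgD, entered with 1.26 FPKM in Control 1 and 1.34 in R15 2, was at 0.523 to 0.945 elsewhere and did not pass the filter, and Ighe was no member.

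Within the heavy constant genes, the share of Igha was lower in most DDC libraries than in chow libraries. Igha took 29.8, 20.8, 53.5 and 35.5% of heavy constant FPKM in Control, 21.2, 8.11, 7.57 and 8.70% in DDC, and 23.7, 25.3 and 44.5% in R15. DDC 1 lay just inside the Control range and the other DDC libraries below it. Ighm took 34.6 to 75.8% in Control, 61.6 to 82.3% in DDC and 45.6 to 62.9% in R15, and the gamma genes together 3.08 to 11.7%, 8.76 to 29.8% and 9.59 to 18.2%. The highest gamma share was in DDC 2, where Ighg2c alone took 17.2%, against 1.53 to 3.48% in the other DDC libraries. The ratio of Ighm to Igha was 0.646 to 3.64 in Control, 3.10 to 9.96 in DDC and 1.03 to 2.65 in R15. These shares compare FPKM, which is per length, but each gene model spans secreted and membrane exons that the table does not separate.

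**Figure D3:**
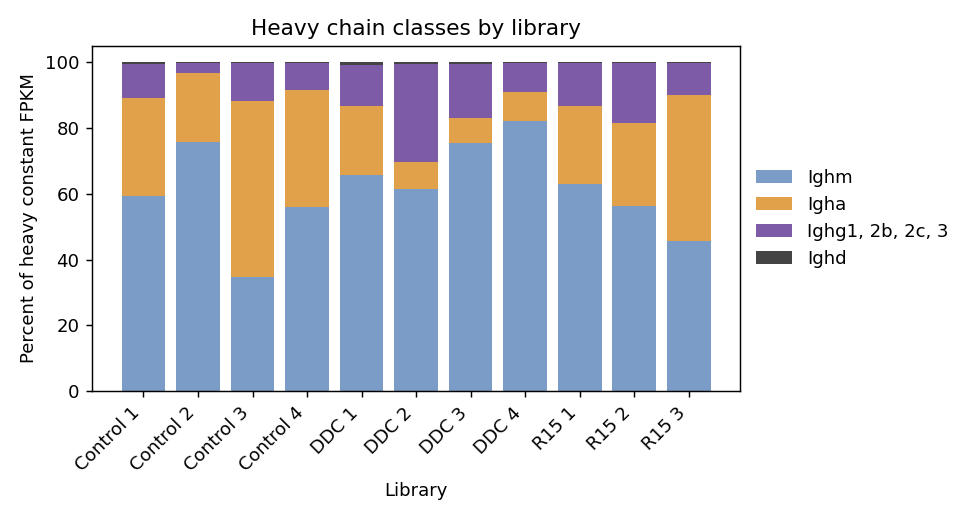
Percent of summed heavy constant FPKM (y axis) taken by Ighm, Igha, the 4 Ighg genes and Ighd in each library, as stacked bars. Igha takes 7.57 to 8.70% in DDC 2, 3 and 4 and 20.8 to 53.5% in Control, and DDC 2 has the largest gamma share, 29.8%.

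Genes outside the rule that act with IgA and in plasma cells were set beside these values. Jchain, which links IgA and IgM into polymers, was at 47.9, 35.2, 79.8 and 55.7 FPKM in Control, 9.87, 9.51, 8.82 and 18.7 in DDC, and 32.7, 159 and 53.3 in R15, with no overlap between DDC and the others. It fell by 2.13 ± 0.45 on the log2 scale in DDC against Control (limma adjusted p = 0.00182; alternatives 0.000178 to 0.119, the highest without the libraries with pancreatic transcripts) and rose by 2.45 ± 0.48 in R15 against DDC (adjusted p = 0.00146; alternatives 0.00084 to 0.0407). The ratio of Igkc to Jchain was 16.3 to 19.4 in Control, 23.9 to 27.4 in DDC and 18.1 to 21.3 in R15. Mzb1, a chaperone of B and plasma cells, was at 2.81 to 4.19, 0.651 to 1.16 and 2.48 to 5.91 FPKM (log2 -1.34 ± 0.21, adjusted p = 0.000283, and 1.28 ± 0.23, adjusted p = 0.000771; alternatives up to 0.0392 and 0.0212).

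Surface genes of B cells had low levels. Cd79a, a part of the B cell receptor, was at 1.31 to 2.50 FPKM in Control, 0.514 to 0.677 in DDC and 1.25 to 3.91 in R15, and it passed in DDC against Control (-0.86 ± 0.23, limma adjusted p = 0.00685; alternatives 0.000172 to 0.17). That call was lost without the libraries with pancreatic transcripts (-0.84, adjusted p = 0.17) and without Control 1 and Control 3 (-0.67, adjusted p = 0.0694). Ms4a1, which encodes CD20, was at 0.272 to 0.500 FPKM in Control, 0.0721 to 0.141 in DDC and 0.224 to 0.405 in R15. DDC lay below both other groups for both genes, though Ms4a1 did not pass the filter. Of the whole B cell list, 7 of 18 genes were tested in DDC against Control, 3 called higher and 2 lower. Over all genes tested, 33.5% were called higher and 31.9% lower, the background for this list and for the plasma cell list. Fcrla and Cd22 would not have passed the filter without the DDC libraries, where they are high, so a call of either is no support for a rise. Of the plasma cell list, 14 of 16 were tested, 3 called higher and 4 lower, and its summed level was 212 to 316 FPKM in Control, 212 to 236 in DDC and 197 to 365 in R15. Besides Jchain, it holds Xbp1 (50.1 to 80.1 FPKM over all libraries) and Sdc1 (33.0 to 60.1), which epithelial cells also express. Tnfrsf17, which encodes the plasma cell receptor BCMA, was at 0.0435 to 0.806 FPKM, and the coactivator Pou2af1 at 0.703 to 8.93, highest in Control 1. Unlike Jchain and Mzb1, some genes of the plasma cell list were higher in every DDC library than in any Control library. Tnfrsf13b was at 0.507 to 0.786 FPKM in Control and 4.103 to 4.89 in DDC, and would not have passed the filter without the DDC libraries. Irf4 was at 0.609 to 1.16 and 2.56 to 3.22 FPKM, and Tent5c at 0.684 to 1.81 and 2.86 to 3.89. Prdm1, which did not pass the filter, was at 0.139 to 0.253 and 0.699 to 1.09 FPKM.

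Pigr, an epithelial gene, was at 442, 234, 446 and 429.8 FPKM in Control, 33.0, 17.9, 32.6 and 106 in DDC, and 65.2, 64.7 and 88.0 in R15. Unlike the member sums, all R15 libraries lay below all Control libraries. It fell by 3.27 ± 0.45 on the log2 scale in DDC against Control (limma adjusted p = 0.000117; alternatives 8.77e-06 to 0.0405). Other cell lists also differed between the groups: macrophage and dendritic cell genes summed to 135 to 166 FPKM in Control, 1415 to 2505 in DDC and 159 to 784 in R15. Endothelial genes summed to 82.1 to 373, 12.6 to 41.8 and 53.7 to 176 FPKM. In DDC against Control 13 of 14 macrophage and dendritic cell genes were called higher and 9 of 9 endothelial genes lower. Over all genes tested, 33.5% were called higher and 31.9% lower. Marco, a macrophage gene, would not have passed the filter without the DDC libraries, where it is high. The part of these cell lists in the immunoglobulin levels was not tested.

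Among heavy variable segments Ighv7-1, of the S107 family, had the highest mean level and Ighv1-26, of the large J558 family, the next. Ighv7-1 was at 58.8, 58.1, 21.1 and 33.5 FPKM in Control, 13.9, 9.40, 26.2 and 55.3 in DDC, and 56.8, 304 and 34.5 in R15. DDC 3 and DDC 4 lay within the Control range, DDC 1 and DDC 2 below it, and R15 2 far above all others. Its change in DDC against Control did not pass (-0.88 ± 0.71, limma adjusted p = 0.301). Against DDC, the R15 level passed by little (1.95 ± 0.77, adjusted p = 0.0474; alternatives 0.022 to 0.194). That call was lost on leaving out any library other than DDC 4 or R15 3, and stood at 1.04 (adjusted p = 0.194) without R15 2.

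Ighv1-26 was at 28.5, 14.7, 153 and 58.4 FPKM in Control, 14.7, 6.44, 3.92 and 17.3 in DDC, and 9.26, 84.6 and 45.8 in R15. Control 3 held more than any other library, and Control 2 lay within the DDC range. It fell in DDC against Control (-2.16 ± 0.82, limma adjusted p = 0.0387; alternatives 0.0173 to 0.17), but not without Control 3 (-1.57, adjusted p = 0.103), Control 4 (0.0831), DDC 2 (0.0859) or DDC 3 (0.103).

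Ighv1-53 was at 11, 6.15, 19.4 and 34.2 FPKM in Control, 3.08, 2.63, 2.53 and 3.18 in DDC, and 13.3, 132 and 18.8 in R15. Its DDC values were close together and below all others. It fell by 2.04 ± 0.67 on the log2 scale in DDC (limma adjusted p = 0.0217; alternatives 0.00186 to 0.0908), a call lost without Control 3 (adjusted p = 0.0506) or Control 4 (0.0618), and rose by 3.13 ± 0.73 in R15 against DDC (adjusted p = 0.0038; alternatives 0.00269 to 0.0332).

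Ighv14-2 was the member that rose in DDC. It was at 4.16, 7.33, 4.11 and 2.92 FPKM in Control, 17.4, 16.0, 24.4 and 38.9 in DDC, and 6.23, 45.1 and 4.13 in R15. All DDC libraries were above all Control libraries and above R15 1 and R15 3, and R15 2 was above all of DDC. The log2 change in DDC against Control was 2.13 ± 0.61 (limma adjusted p = 0.0105; alternatives 0.000217 to 0.102). The call held without any 1 library, but not without the libraries with pancreatic transcripts (2.72, adjusted p = 0.102) or without Control 1 and Control 3 (2.05, adjusted p = 0.0598). In R15 against DDC it did not pass (-0.99 ± 0.66, adjusted p = 0.214; alternatives 0.00162 to 0.652), whereas without R15 2 it fell (-1.96, adjusted p = 0.00162). As a share of heavy variable FPKM it was 0.797, 2.05, 0.527 and 0.503% in Control, 12.4, 10.7, 16.8 and 15.4% in DDC, and 1.69, 2.48 and 0.718% in R15, so as a share R15 2 was with the other R15 libraries. The values rest on 69 to 149 reads in Control and 365 to 771 in DDC.

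In each library 1 heavy segment led. Ighv7-1 led in Control 1 and 2, DDC 3 and 4, and R15 1 and 2, with 11.3 to 21.8% of heavy variable FPKM. Ighv1-26 led in Control 3 and 4 and R15 3, with 19.6, 10.1 and 7.96%. Ighv14-2 led in DDC 1 with 12.4%, and it was the next after the leader in the other 3 DDC libraries. Ighv8-8 led in DDC 2 with 13.0%. It was at 0.332 to 5.27 FPKM in Control, 1.15, 19.4, 4.57 and 4.01 in DDC, and 10.0, 48.1 and 2.41 in R15, so that the groups overlapped (DDC against Control 1.13 ± 0.88, limma adjusted p = 0.278).

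The kappa variable segments were led by Igkv15-103. It was at 138, 121, 51.2 and 80.0 FPKM in Control, 25.7, 15.1, 43.6 and 105 in DDC, and 117, 631 and 67.8 in R15. DDC 4 lay inside the Control range and the other DDC libraries below it. In DDC against Control it did not pass (-1.29 ± 0.74, limma adjusted p = 0.148; alternatives 0.0417 to 0.601, the lowest without Control 3 and R15 2), and in R15 against DDC it rose by 2.19 ± 0.79 (adjusted p = 0.0341; alternatives 0.0143 to 0.137). That rise was lost without R15 2 (1.26, adjusted p = 0.137), DDC 1 (0.0754), DDC 2 (0.0861) or DDC 3 (0.0543).

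Igkv1-135 had a course like that of Ighv14-2 by share. It was at 52.3, 11.5, 11.5 and 1.93 FPKM in Control, 29.8, 32.4, 40.8 and 62.0 in DDC, and 38.8, 126 and 25.2 in R15. Control 1 lay within the DDC range and the other Control libraries below it. The rise did not pass (1.70 ± 0.78, limma adjusted p = 0.079; alternatives 0.00932 to 0.202) and passed without Control 1 (2.40, adjusted p = 0.00932), without Control 1 and Control 3 (2.75, 0.0106) and without the libraries with pancreatic transcripts (3.93, 0.0135). It took 6.36, 2.09, 1.09 and 0.220% of kappa variable FPKM in Control, 15.3, 15.2, 19.2 and 15.9% in DDC, and 6.48, 5.34 and 3.22% in R15, with no overlap between DDC and the others. It led the kappa segments in DDC 1 and DDC 2 and was the next in DDC 3 and DDC 4, behind Igkv15-103.

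The 3 largest falls called in DDC were of the kappa segments Igkv6-23, Igkv14-126 and Igkv8-27. Igkv6-23 was at 56.3, 27.7, 52.2 and 103 FPKM in Control, 0.0394, 1.55, 1.22 and 2.19 in DDC, and 5.64, 15.1 and 75.8 in R15, where the DDC values rest on 1 to 43 reads. It was the leading kappa segment of Control 4 and R15 3, with 11.7 and 9.69%. It rose in R15 against DDC by 3.28 ± 0.75 (limma adjusted p = 0.00346), and this call and its fall in DDC held under every alternative run, with adjusted p of at most 0.0269 and 0.00424. Igkv5-39, the leader in Control 3 with 13.5%, was at 116, 14.1, 143 and 70.0 FPKM in Control, 6.14, 5.35, 9.08 and 7.46 in DDC, and 4.21, 11.9 and 22.2 in R15. It fell in DDC (-3.04 ± 0.67, adjusted p = 0.00254; alternatives 0.000104 to 0.0304), and R15 1 was still in the range of DDC or below. Igkv8-27 was at 18.5 to 48.3 FPKM in Control, 0 to 6.14 in DDC and 2.92 to 23.7 in R15, and its fall in DDC (adjusted p = 0.000892) was lost without the libraries with pancreatic transcripts (-3.43, adjusted p = 0.0791).

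Igkv14-126 and Ighv11-2 are known in mice as the light and heavy segments of B-1 cell antibodies against phosphatidylcholine. Igkv14-126 was at 42.6, 46.1, 49.5 and 79.6 FPKM in Control, 3.21, 0.0871, 1.49 and 3.51 in DDC, and 2.44, 93.1 and 4.11 in R15. Ighv11-2 was at 13.4, 13.2, 15.9 and 28.1 FPKM in Control, 1.01, 0.10, 1.32 and 2.54 in DDC, and 1.06, 36.1 and 2.71 in R15. Both were low in all DDC libraries and in R15 1 and R15 3, and high in R15 2. Ighv11-2 fell by 3.11 ± 0.77 on the log2 scale in DDC against Control (limma adjusted p = 0.00492; alternatives 7.27e-05 to 0.125), and Igkv14-126 fell as well (adjusted p = 0.00193; alternatives 2.04e-05 to 0.0871). Both calls were lost without the libraries with pancreatic transcripts (-3.80, adjusted p = 0.125, and -5.13, adjusted p = 0.0871).

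Lambda light chains use few variable segments in mice, and Iglv1 took 75.6 to 95.9% of lambda variable FPKM. It was at 64.6, 95.8, 265 and 117 FPKM in Control, 12.2, 21.4, 11.1 and 28.6 in DDC, and 21.6, 723 and 53.1 in R15. All DDC libraries, R15 1 and R15 3 were below all Control libraries. It fell in DDC (-2.72 ± 0.92, limma adjusted p = 0.0237; alternatives 0.000758 to 0.322), a call lost without Control 3 (-2.33, adjusted p = 0.0637), DDC 1 (0.0556) or DDC 3 (0.0594). R15 against DDC did not pass (2.41 ± 0.99, adjusted p = 0.0556; alternatives 0.0115 to 0.197), and passed without R15 1 (3.46, adjusted p = 0.0115). Iglv2 was at 4.27 to 28.7, 0.574 to 3.48 and 0.331 to 24.7 FPKM and Iglv3 at 0.748 to 18.2, 0.0552 to 1.43 and 2.07 to 5.85. Lambda took 8.45 to 21.8% of light variable FPKM in Control, 6.41 to 9.91% in DDC, and 4.01, 24.2 and 8.24% in R15. The lambda constant gene Iglc2, typed as protein coding in the table and so outside the rule, was at 5.84 to 13.6 FPKM in Control, 2.03 to 3.31 in DDC and 3.11 to 17.3 in R15.

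Members called by limma in R15 against Control were Igkv2-137, Ighv14-1 and Ighv2-4. Ighv14-1 was at 0.283, 0, 0.164 and 0.0846 FPKM in Control, 0.506, 0.745, 1.15 and 1.51 in DDC, and 8.69, 4.00 and 16.9 in R15, so that the groups did not overlap, and its exon is the nearest relative of that of Ighv14-2. The log2 change of Ighv14-1 was 3.08 ± 0.35, and 2.68 without the libraries with pancreatic transcripts. Igkv2-137 was at 4.38, 0, 0.756 and 0 FPKM in Control and 14.1, 50.1 and 6.40 in R15 (3.35 ± 0.82, adjusted p = 0.0339; alternatives 0.0255 to 0.239). Ighv2-4 was at 0.162, 0.0987, 1.65 and 0.254 FPKM in Control and 1.81, 2.63 and 2.56 in R15 (log2 change 1.21 ± 0.27). The R15 libraries were above every Control library for all 3 segments. Without them Ighv14-1 and Ighv2-4 would not have passed the filter, so no p-value is given for either. The Igkv2-137 call was lost without Control 3 (adjusted p = 0.067), Control 4 (0.0671), DDC 1 (0.0515), DDC 2 (0.0544), R15 1 (0.081) or R15 2 (2.59, adjusted p = 0.10). The Ighv2-4 call was also lost without Control 1, Control 4, R15 1, R15 2 or R15 3.

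The largest rises in R15 against DDC were of Igkv3-2, Igkv17-121 and Igkv6-23. Igkv3-2 was at 0.592, 7.51, 3.57 and 66.4 FPKM in Control, 0, 3.60, 0.0563 and 0.888 in DDC, and 46.8, 20.3 and 5.50 in R15 (3.43 ± 1.15, limma adjusted p = 0.0249; alternatives 0.00554 to 0.0984). That call was lost without DDC 1 (adjusted p = 0.0584), DDC 3 (0.0589), R15 1 (0.0984) or R15 2 (0.06). Igkv17-121 was at 7.69, 0.296, 8.65 and 5.39 FPKM in Control, 1.60, 0.351, 1.79 and 1.92 in DDC, and 11.3, 47.3 and 21.1 in R15. All R15 libraries were above all others, and the rise against DDC (3.35 ± 0.69, adjusted p = 0.00192) held under every alternative run (0.0002 to 0.0144).

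Heavy and kappa segments were then paired by how steady their ratio was over the 11 libraries, as a description chosen after the values were seen. Of 567 pairs of 21 heavy and 27 kappa variable members with a mean of at least 5 FPKM and no 0 value, Ighv7-1 with Igkv15-103 had the steadiest ratio. Their log2 ratio had an SD of 0.20, against a median SD of 2.06 over the pairs and 0.68 for the next pair, Ighv1-72 with Igkv1-110. Igkv15-103 stood at 1.61 to 2.43 times Ighv7-1 while the level of Ighv7-1 ranged from 9.40 to 304 FPKM. The ratio was 2.35, 2.09, 2.43 and 2.39 in Control, 1.85, 1.61, 1.66 and 1.89 in DDC, and 2.06, 2.08 and 1.96 in R15, so DDC lay below the others throughout. This pair also came first without R15 2, with an SD of 0.21. Ighv11-2 with Igkv14-126 came after these, with an SD of 0.70 and ratios of 0.870 to 3.50. The 2 shares that were high in DDC, those of Ighv14-2 and Igkv1-135, ranked 47 with an SD of 1.19. Within DDC their ratio was 1.72, 2.03, 1.68 and 1.59, and outside DDC it ranged from 0.661 to 12.6. Which heavy chain sits with which light chain in a cell was not measured, the libraries differ in immunoglobulin level, and segments of 1 library share its cells.

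**Figure D4:**
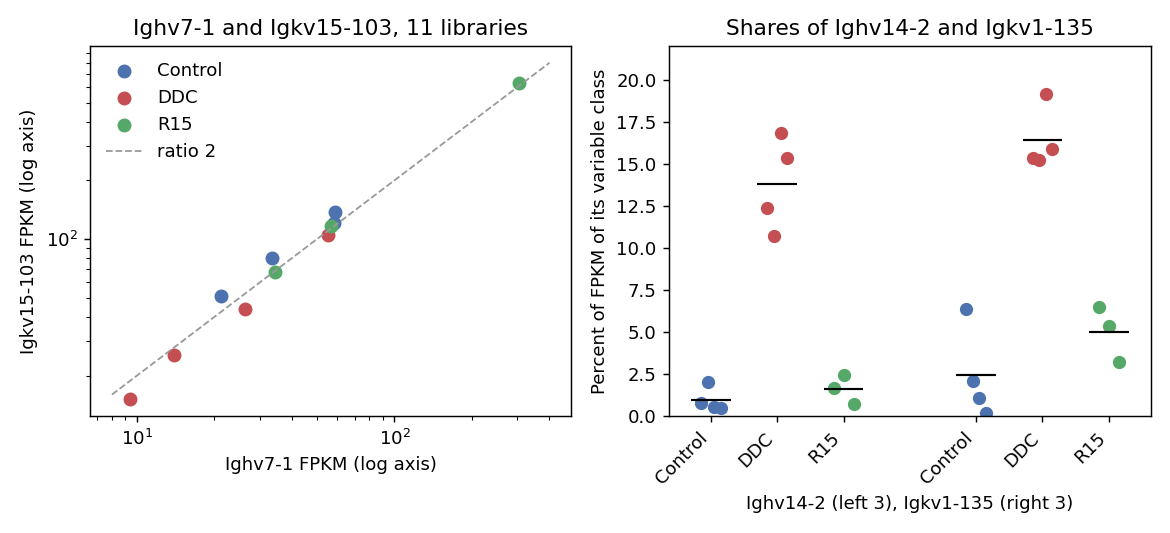
Left, FPKM of Igkv15-103 (y, log axis) against Ighv7-1 (x, log axis) in the 11 libraries, with a dashed line at a ratio of 2; the points follow the line over 9.40 to 304 FPKM of Ighv7-1. Right, share of heavy variable FPKM taken by Ighv14-2 and of kappa variable FPKM taken by Igkv1-135, with points for libraries and bars for group means; the DDC points lie at 10.7 to 16.8% and 15.2 to 19.2%, above all others.

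The number of segments seen depends on depth, and the DDC libraries held fewer immunoglobulin reads. Heavy variable segments at 1 FPKM or more numbered 67, 47, 69 and 62 in Control, 35, 35, 30 and 40 in DDC, and 44, 72 and 57 in R15. With each library thinned in expectation to the 2587 heavy variable reads of the shallowest, the numbers expected with a read, segments under 1 FPKM included, were 79.9, 65.1, 82.5 and 75.8 in Control, 56.5, 74.1, 62.0 and 68.1 in DDC, and 65.9, 77.2 and 79.1 in R15. The DDC range then overlapped with both other groups. For kappa variable segments, those at 1 FPKM or more numbered 57, 47, 58 and 54 in Control, 37, 38, 39 and 46 in DDC, and 47, 63 and 62 in R15, and at 3675 reads each the expected numbers were 59.9 to 70.4, 62.1 to 71.8 and 65.0 to 75.7. At equal depth the kappa ranges overlapped.

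The effective number of segments is the exponential of the entropy of their FPKM shares. It falls when a few segments dominate and also when fewer are detected, and it was not brought to equal depth. For heavy segments it was 40.6, 31.6, 34.7 and 39.3 in Control, 28.0, 32.1, 22.9 and 23.0 in DDC, and 26.1, 32.3 and 41.0 in R15. DDC 2 was above Control 2 and the other DDC libraries were below all Control libraries. The DDC mean was 10.0 lower than the Control mean, and 8.67 to 11.9 lower with any 1 library left out. Evenness apart from number is the entropy as a percent of its maximum for the segments with reads. For heavy segments it was 79.4 to 83.3% in Control, 82.8, 81.6, 77.1 and 73.3% in DDC, and 75.8 to 83.6% in R15. DDC 1 and DDC 2 lay within the Control range, and DDC 3 and DDC 4 below it. The top 5 heavy segments took 36.4 to 38.1% in Control, 40.7 to 54.0% in DDC and 30.5 to 49.3% in R15. For kappa segments the effective number was 25.1 to 35.4 in Control, 20.4 to 30.0 in DDC and 23.2 to 35.6 in R15, and the groups overlapped. Their evenness, at 74.8 to 82.1%, 70.9 to 81.2% and 74.3 to 82.2%, overlapped as well. By family, the 47 Ighv1 members took 39.7 to 61.0% of heavy variable FPKM in Control, 23.4 to 42% in DDC and 36.0 to 54.3% in R15. The 4 Ighv14 members took 1.39 to 6.43%, 12.8 to 18.3% and 2.87 to 5.01%, and Ighv14-2 by itself made most of the share in DDC. Ighv14-3 and Ighv14-4 went the other way, from means of 5.28 and 7.04 FPKM in Control to 0.559 and 1.28 in DDC.

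**Figure D5:**
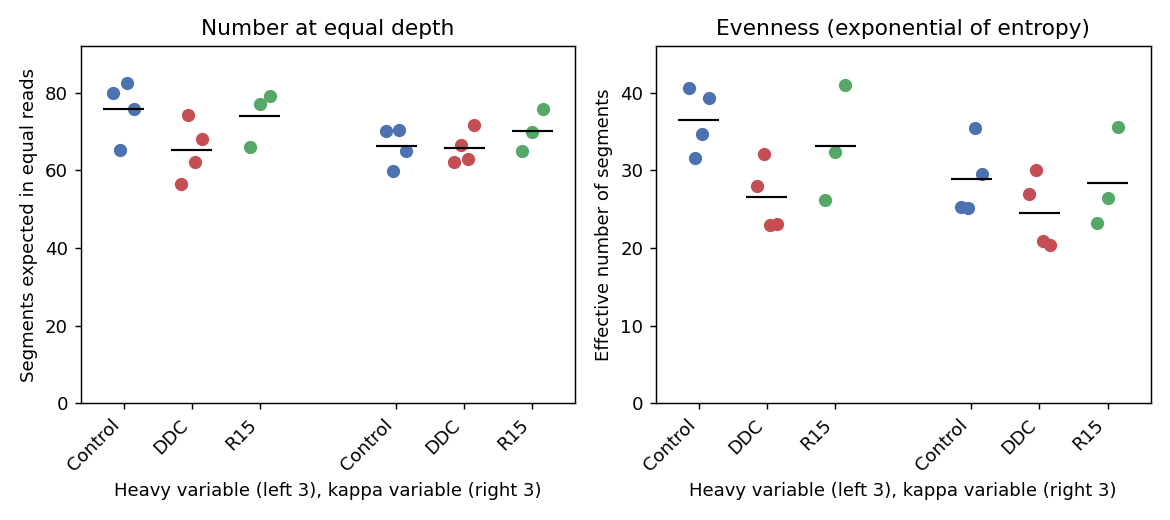
Left, number of heavy and kappa variable segments expected at equal reads (2587 and 3675). Right, their effective number. Points are libraries in the group colours used above and bars are group means; heavy effective numbers are 22.9 to 32.1 in DDC and 31.6 to 40.6 in Control, while the kappa points overlap.

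Reads were found in all 11 libraries for 30 of 91 heavy and 36 of 83 kappa variable members. At 1 FPKM or more in all 11 were 10 heavy and 7 kappa members, and 7 and 10 reached it in only 1 library. For 33 heavy and 25 kappa members, 1 library held more than 50% of the FPKM summed over the 11 libraries, and that library was R15 2 for 18 and 8 of them.

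Joining segments are 36 to 100 bases long in the table, so that their FPKM rests on few positions. They moved with the variable segments: all 4 heavy and 4 of 5 kappa joining members fell in DDC and rose in R15 against DDC by limma. Over all genes tested, 31.9% fell in DDC and 33.4% rose in R15 against DDC. The exception among the joining segments was Igkj3, at 1.1 to 6.35 FPKM, which did not pass in either. The other kappa joining segments lay between 41.1 and 2241 FPKM. Their sequences, from the same GENCODE M21 transcripts, are shown because Igkj3 lacks a motif the others hold. In capitals is TTCGG, which covers codons of the phenylalanine and the glycine that begin the conserved joining motif.
Igkj1: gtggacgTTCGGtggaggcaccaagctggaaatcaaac
Igkj2: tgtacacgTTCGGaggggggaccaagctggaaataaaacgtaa
Igkj3: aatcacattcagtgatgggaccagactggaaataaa
Igkj4: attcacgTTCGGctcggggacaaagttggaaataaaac
Igkj5: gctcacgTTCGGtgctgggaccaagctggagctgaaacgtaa
Searched on the coding strand only, TTCGG or its heavy counterpart TGGGG was found in 11 of 14 annotated joining segments. The segments run on the plus strand from chr6:70722562-70722599 for Igkj1 to chr6:70723886-70723927 for Igkj5. Igkj1 took 36.4 ± 9.97% of kappa joining FPKM in Control (SD, n = 4), 47.3 ± 8.85% in DDC (n = 4) and 35.4 ± 3.75% in R15 (n = 3). Diversity segments are 11 to 23 bases long, and their main member, Ighd1-1, rested on 6 to 126 reads in a library. It was at 28.4, 39.0, 40.9 and 58.9 FPKM in Control, 16.0, 5.78, 7.60 and 4.44 in DDC, and 22.8, 82.2 and 32.3 in R15, with DDC below the others.

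The 16 T cell receptor entries summed to 2.96 to 6.60 FPKM in Control, 4.3 to 7.19 in DDC and 1.93 to 23.8 in R15, and 13 of them reached 1 FPKM in only 1 library. Trdv4, a delta chain variable segment, had 0 reads in each Control library, 49, 56, 33 and 43 reads in DDC and 0, 1 and 2 in R15. Its mean was 2.14 ± 0.27 FPKM in DDC, where a floor of 3 reads would be at most 0.150 FPKM in a Control library. It passed the filter only through the DDC libraries where it is high, so no test is given. The alpha constant gene Trac was at 2.33, 1.09, 2.13 and 3.02 FPKM in Control, 0.696, 1.38, 0.734 and 1.46 in DDC, and 1.01, 4.58 and 4.49 in R15, and did not pass in DDC against Control (-0.59 ± 0.33, limma adjusted p = 0.142; alternatives 0.0304 to 0.352) except without R15 1 (0.0304) or with only the 2 groups in the fit (0.0417). The gamma chain entries Tcrg-V7, Trgj1 and Tcrg-C1 reached 2.51, 4.31 and 1.79 FPKM in R15 3 and stayed under 1 FPKM elsewhere.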

How the data were processed

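Per gene and library, the authors' deposited table gives FPKM, with gene types, lengths and coordinates. The submitters' processing notes name build mm10. The aligner, counting tool, treatment of reads with several matches and gene models are not given in the sources used. Whole reads could be recovered for 100% of nonzero values (tolerance 0.001), taking the smallest product of FPKM and gene length (plus 1 base) in a library as 1 read; FPKM of 0.9 to 1.1 rested on a median of 122.5 reads. Reads carry no molecular identifiers, so counts cover counting error only. The labels number the libraries as replicates without naming animals.

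log2(FPKM + 1) was fitted in limma 3.58.1 (R 4.3.3) with all 11 libraries in 3 groups and a mean-variance trend, for 15264 genes with 1 FPKM or more in at least 3 libraries. 2-sided p-values were adjusted over all of these by the Benjamini-Hochberg method (threshold 0.05). Same-numbered libraries did not deviate together (correlations of -0.28 to 0.30), and no label ties a number to a shared animal, litter or day.

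Members and lists were chosen with earlier results of these data known. Named were all constant genes and Jchain, the 3 highest segments of each variable class, the leading segment of each library, the 3 largest rises and falls called per comparison, chosen B and plasma cell genes and the entries nearest to the threshold; others were named after their values were seen. Alternatives were pseudocounts of 0.1 and 5, no filter, a filter of 5 FPKM, 2 other scalings, only the groups compared, the replicate number as a block, voom on whole reads, libraries left out, no short segments, read-based sums, all entries and pseudogenes added. Leaving out Control 3 with R15 2 was chosen after seeing the data. Sequences came from GENCODE M21 (GRCm38), which held 202 of the 203 immunoglobulin members, and 166 of 176 variable exons had the 3′ end given in the table.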

Additional observations from a re-analysis of the deposited data

Results flagged for a closer look

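In 96 groups of 4 libraries checked, 1 library lay apart from the other 3 by Dixon's criterion in 12, where chance gives about 5%. DDC 4 lay above the other DDC libraries for the summed immunoglobulin FPKM (2823 against 1461 to 1559), the heavy variable sum (253 against 140.1 to 149.6), the kappa variable sum (390.3 against 195 to 213), Igkc (458 against 236 to 256), Jchain (18.7 against 8.82 to 9.87), Igkv2-137 (12.8 against 1.45 to 2.89) and Pigr (106 against 17.9 to 33.0). Most of these sums share transcripts and are not independent. Pigr in Control 2 was below the other Control libraries (234 against 429.8 to 446 FPKM). Ighv2-4 in Control 3 was at 1.65 FPKM against 0.0987 to 0.254, and Igkv3-2 in Control 4 at 66.4 against 0.592 to 7.51. The Igha share of heavy constant FPKM was 21.2% in DDC 1 against 7.57 to 8.70%, and the Igkv1-135 share of kappa variable FPKM was 19.2% in DDC 3 against 15.2 to 15.9%.

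Entries outside the rule also held signal above the Control libraries. Igkv11-106, typed as a pseudogene in the table, was at 54.2 FPKM in R15 1, where Control reached 27.5, but the table places it inside the member Igkv19-93, and both entries hold the same 1040 reads there and equal reads in 9 of 11 libraries, so this is no separate signal. Igkv4-71 and Igkv4-54, typed as protein coding, were at 4.88 in R15 2 and 5.57 in R15 3, where Control reached 1.55 and 0.246. The 74 entries typed as immunoglobulin pseudogenes summed to 13.1 FPKM in R15 2, where Control reached 6.79.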

How the results depend on the processing

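Leaving out 1 library at a time, falls in DDC against Control ranged from 35 to 61 and rises from 1 to 3, rises in R15 against DDC from 37 to 78 and falls from 0 to 1, and in R15 against Control rises from 1 to 3 and falls from 0 to 2. Rises in DDC against Control numbered 2 with pseudocount 0.1, only the 2 groups, voom, or Control 3 and R15 2 left out, and its falls 27 without the libraries with pancreatic transcripts and 24 without Control 1 and Control 3. Rises in R15 against Control numbered 1 with the 5 FPKM filter or only the 2 groups and 0 without the pancreatic libraries, where 1 fell; 3 fell without Control 3 and R15 2. In R15 against DDC, 37 rose and 1 fell without the pancreatic libraries or without Control 3 and R15 2. With the replicate number as a block, which did not pair the libraries, 44 fell and 2 rose in DDC, 53 rose in R15 against DDC, and 1 rose and 1 fell in R15 against Control. Under the block Ighv1-26 in DDC (limma adjusted p = 0.0677), Ighv7-1 in R15 against DDC (0.0598) and Igkv2-137 (0.0778) and Ighv2-4 in R15 against Control did not pass. The log2 ratio of summed FPKM was -1.95 to -1.56 for DDC against Control, -0.25 to 0.87 for R15 against Control and 1.48 to 2.59 for R15 against DDC when any 1 library was left out. The difference in heavy effective number between R15 and Control, -3.39, was -7.30 to 0.119 with any 1 library left out and -10.1 without the pancreatic libraries. Signs turned, with no value called, for Igkc in R15 against Control (-0.18 without R15 2, -0.024 also without Control 3), Igha (-0.12 without Control 2, -0.31 without R15 2, -0.014 without the pancreatic libraries) and Ighm (-0.31 without R15 2, -0.40 also without Control 3; -0.31 to 0.76 with any 1 library left out). They turned for Igkv1-135 in R15 against DDC (-0.33 without R15 2, also with Control 3 left out; up to 0.81 with any 1 left out), and in DDC against Control for Ighg2c (-0.73 to 0.30 with any 1 library left out, 0.06 without Control 1, 0.03 without Control 3, 0.30 without DDC 1, 0.048 without the pancreatic libraries, 0.44 without Control 1 and Control 3, 0.028 without Control 3 and R15 2) and Ighg3 (0.077 without Control 1 and Control 3). Of 1118 values of named genes under alternatives, 993 kept direction and call. The cause of the others was not tested. DDC libraries held 2587 to 5181 heavy variable reads, which limits what can be seen of rare segments there.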

Other observations

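The 74 entries with an immunoglobulin pseudogene type summed to 1.44 to 6.79 FPKM in Control, 0.350 to 0.930 in DDC and 2.14 to 13.1 in R15, so that DDC was the lowest group for these as well. Of the 219 members, 4 overlap another entry of the table and none overlaps another member, so no position enters the member sums more than once. The same need not hold for reads, as the 1040 reads held by both Igkv19-93 and Igkv11-106 in R15 1 show. Whether a read across joined segments counts for each of them is not known, since the counting tool is not given.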
